A study of Mus musculus with 32 samples.

Results

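Whole bladders of old female C57BL/6 mice that had been gavaged with drug vehicle were compared with whole bladders of untreated old females by total RNA sequencing. The comparison holds every vehicle-gavaged old bladder (4) and every untreated old bladder (6), which is 10 of the 32 bladders sequenced. All of these mice were 26 months old and came from the NIA aging colony, and the labels name no transgene or other allele. The vehicle, a mixture of 60% Phosal 50 PG (a phosphatidylcholine concentrate), 30% PEG 400 and 10% ethanol, was given by mouth on 3 consecutive days per month from 21 to 26 months of age, and the mice then rested for 5 days. In this study the vehicle was the carrier of the senolytic pair dasatinib plus quercetin (D+Q), so the comparison covers handling and carrier together. Old bladders gavaged with water (5) and old bladders given D+Q in the same vehicle (6; 5 mg/kg/day dasatinib and 50 mg/kg/day quercetin) are used here only as points of reference. Each library is labelled as a separate bladder, and nothing in the labels gives cages, litters or collection days.

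No gene differed between vehicle-gavaged and untreated old bladders at an adjusted p under 0.05 in edgeR's quasi-likelihood test. Of the 10 genes ranked as higher, 9 were cytoplasmic ribosomal protein genes, while the 10 ranked as lower were mixed, with 2 encoded by the mitochondrial genome. As lists, cytoplasmic ribosomal protein genes stood higher after vehicle (median log2 fold change 0.19 over the 80 members tested), and respiratory chain genes encoded by the mitochondrial genome stood lower (median −0.30 over 13). Water-gavaged bladders, compared with the same untreated bladders, had medians of 0.2 and −0.29 for these lists, and no gene passed between vehicle and water bladders. The lists for alcohol metabolism, fatty acid oxidation and phosphatidylcholine synthesis had medians within 0.01 of 0, and that for sterol and fatty acid synthesis had 0.036.

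Ribosomal proteins make up the protein part of the large (Rpl) and small (Rps) subunits of the ribosome, and cells keep their many mRNAs in step. Most of these mRNAs begin with a run of pyrimidines, the 5′ terminal oligopyrimidine tract, through which growth signals acting on mTOR set how heavily they are translated. The mitochondrial genome encodes subunits of complexes I, III, IV and V of the respiratory chain, while the remaining complex I subunits are encoded in the nucleus, imported and assembled with them. The bladder wall is built of detrusor smooth muscle, a connective tissue layer and the urothelium that lines the lumen.

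The start regions of the leading ribosomal protein genes are printed with the pyrimidine runs found in them. The search window is wider than the tract at the mRNA's first base, and listed starts can differ from those used in bladder. In the RefSeq start-site sequences (GRCm38.p6), 62 of the 82 ribosomal protein genes had an entry. An unbroken run of at least 8 pyrimidines (C or T, read on the transcribed strand from 20 bases before to 50 bases after a listed start) was present in 48 of those 62 (77.4%) and in 28.5% of all 27025 genes in the table. Each line gives 30 bases, 5′ to 3′, with the longest such run in capitals. S100a6, the only gene among the 10 leading higher genes that encodes no ribosomal protein, is printed for contrast, with a longest run of 4. Counted from the listed start, the run began at −5 in Rplp2 and −1 in Rps6, but at 24, 28 and 36 in Rpl35a, Rpl37 and Rpl39, so only the first pair had it at the listed start.
Rplp2, chr7:141447636-141447665, plus strand: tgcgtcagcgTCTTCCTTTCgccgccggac
Rpl35a, chr16:33056469-33056498, plus strand: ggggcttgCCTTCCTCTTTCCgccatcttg
Rpl37, chr15:5116632-5116661, plus strand: gcgggggtgCTTTCTCTTCCggtctctttg
Rpl39, chrX:37085173-37085202, minus strand: gttcttccggtcccggCCTTTCTCTTCTCC
Rps6, chr4:86857349-86857378, minus strand: ggaagtcgggCCTCTTTTTCgtgacgcctc
S100a6, chr3:90612887-90612916, plus strand: acacaagccagagTTTCgagtcacgtgcca
The 3528 other tested genes that had such a run had a median log2 fold change of 0.0029, against 0.0021 for the 9203 without it.

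Total counts were 21252772 to 41630715 per vehicle bladder and 30757033 to 52650259 per untreated bladder, with vehicle replicate 4 the shallowest. The defining markers of urothelium, smooth muscle, fibroblasts, endothelium, Schwann cells, macrophages, B, plasma and T cells, adipocytes and blood were counted in all 10 bladders, while of 3 skeletal muscle markers 1 was at 0 in some. Vehicle replicate 1 stood apart in immunoglobulin RNA, which took 0.0269% of its counts, against 0.88%, 1.45% and 1.36% in the other vehicle bladders and 0.388% to 2.88% in the untreated bladders. Medians of the immune cell lists are therefore given with and without that library. In whole tissue, fewer cells of a type and less RNA per cell cannot be told apart. Levels are given as CPM (counts per 1000000 counts), scaled by TMM over the 21 bladders of 26 months, and fold changes are vehicle over untreated on the log2 scale with their standard errors (SE).

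Of 17440 genes tested, 0 passed (0%), and the smallest adjusted p was 0.135. At an unadjusted p under 0.05, 807 genes were higher after vehicle (4.63%) and 657 were lower (3.77%). The CPM of the groups did not overlap for 272 genes that were higher in every vehicle bladder (1.56%) and for 121 that were lower in every vehicle bladder (0.694%). DESeq2, run as an alternative on the same counts, passed 76 genes as higher (0.538% of the 14137 to which it gave an adjusted p) and 51 as lower (0.361%). Of its 76 higher genes 44 belonged to the list of Rpl and Rps genes, and of its 51 lower genes 6 were mitochondrially encoded. edgeR's likelihood ratio test and its exactTest each passed 19 genes, the same 19, of which 17 were among the DESeq2 calls. The calls from these more permissive tests are given beside the edgeR values, and no gene is described as changed on their strength alone.

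**Figure D1:**
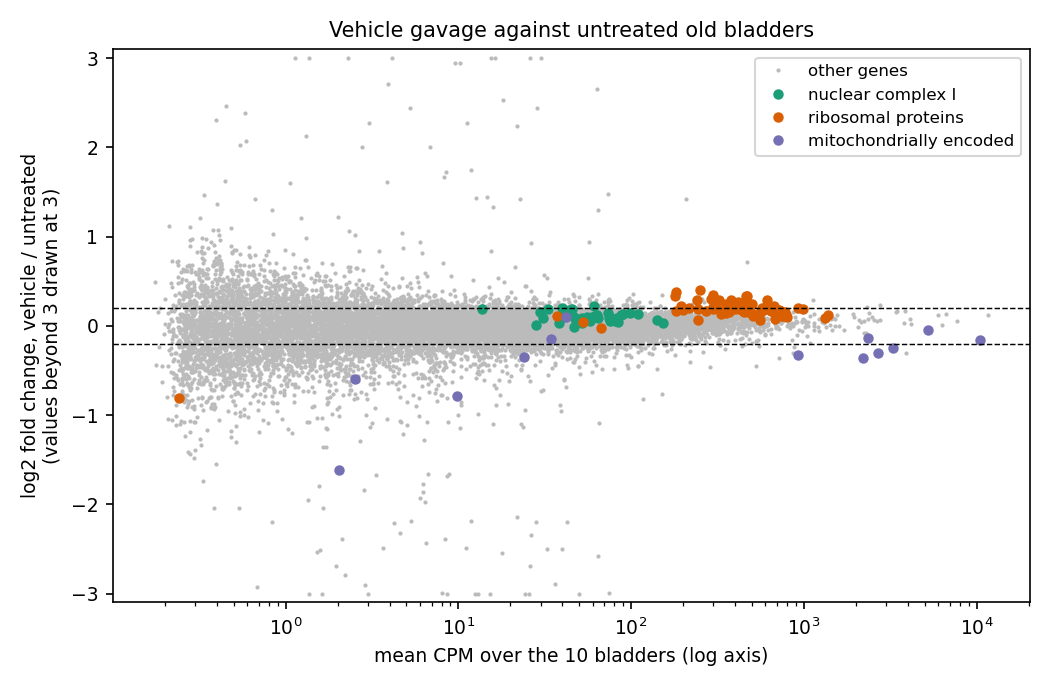
Log2 fold change (vertical axis, vehicle over untreated) of every tested gene against its mean CPM over the 10 bladders (horizontal log axis); dashed lines mark 0.2 on either side of 0. The ribosomal protein genes form a tight band above 0 at high levels, the mitochondrially encoded genes lie mostly below 0, and the scatter of the other genes widens toward low levels.

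Among the ribosomal protein genes, 78 of 80 tested were higher after vehicle, 71 of them at an unadjusted p under 0.05 (4.63% of all genes), and none was lower at that p. The groups did not overlap for 51 of the 80, set against 1.56% of all genes tested. By subunit, 47 of 49 large subunit genes and 31 of 31 small subunit genes were higher, with medians of 0.18 and 0.19. The 2 exceptions were Rpl3l, a paralog of striated muscle counted at under 1 CPM in every bladder (log2 fold change −0.81 ± 0.44 SE), and Rpl7l1 (−0.021 ± 0.048). Rpl10l and Rpl39l, both known from testis, had too few counts for a test. The median was 0.15 without vehicle replicate 4 and 0.21 without vehicle replicate 3, the lowest and highest values when each bladder was left out in turn.

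Rplp2, an acidic stalk protein of the large subunit (chromosome 7, 141447370 to 141451585, plus strand, mm10), gave the smallest p of all genes. Its level was 544, 508, 536 and 567 CPM in the 4 vehicle bladders and 401 to 450 CPM in the 6 untreated bladders (median 423). Every vehicle bladder lay above every untreated one, and the log2 fold change was 0.34 ± 0.044 SE, or 1.26-fold (adjusted p = 0.135 in edgeR, 4.61e-09 in DESeq2).
Rpl36, of the large subunit, was at 346, 331, 325 and 363 CPM after vehicle and at 243 to 289 CPM without treatment (log2 fold change 0.35 ± 0.050 SE). Rpl39, a very small protein at the exit tunnel, was at 224, 214, 196 and 219 CPM against 143 to 178 CPM (0.38 ± 0.058). Rps6, the small subunit protein that S6 kinase phosphorylates downstream of mTOR, was at 490, 472, 495 and 522 CPM against 407 to 443 CPM (0.22 ± 0.039). In each of these genes the lowest vehicle bladder exceeded the highest untreated one.
The remaining ranked members, Rpl35a, Rpl37, Rps12, Rps29 and Rpl38, had log2 fold changes of 0.29 to 0.33 with edgeR adjusted p of 0.135 to 0.218. Rpl4, the member with the highest CPM, was at 1490, 1410, 1380 and 1570 CPM after vehicle and at 1300 to 1420 CPM without, with overlapping groups (0.13 ± 0.049). Fau, which encodes the small subunit protein eS30 fused to a ubiquitin-like protein and so falls outside the Rpl and Rps names, was singled out after its values were seen. It was at 388, 374, 410 and 458 CPM against 329 to 356 CPM (0.24 ± 0.055). DESeq2 passed it as higher (adjusted p 0.0118), beside the 44 members of the list. Many of these genes have processed pseudogenes that can share reads, so the level of a single member is uncertain. Among the genes named below, Ndufa2, Junb, Dbp, Adh1, Hadha, Hmgcs1, Chkb, Chpt1, Arntl, Cxcr5, Cd3e, Csf1r and Tagln overlap a gene on the opposite strand, whose reads cannot be told apart without strand.

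S100a6, a calcium-binding protein abundant in fibroblasts and epithelium, was the only other gene among the 10 ranked as higher. It was at 1340, 1190, 1210 and 1320 CPM after vehicle and at 979 to 1070 CPM in untreated bladders (log2 fold change 0.29 ± 0.051 SE, edgeR adjusted p = 0.218). No vehicle bladder fell within the untreated range.

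Taken as a share of all counts, ribosomal protein genes held 4.14%, 3.97%, 4.05% and 4.38% in the vehicle bladders and 3.52% to 3.83% in the untreated ones (median 3.69%). The shares did not overlap. Water-gavaged bladders held 4.13% to 4.38%, also clear of the untreated range, whereas D+Q bladders, which received the same vehicle, spanned 3.7% to 4.79% and overlapped both.

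**Figure D2:**
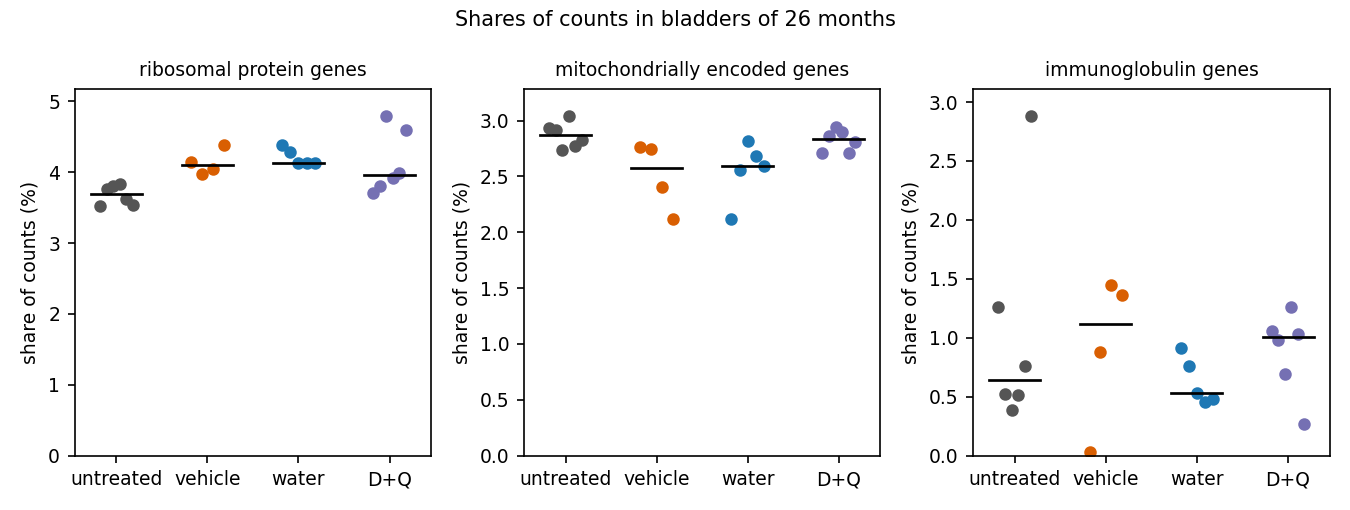
Share of all counts (vertical axes, %) held by ribosomal protein, mitochondrially encoded and immunoglobulin genes in each bladder of 26 months, with points for bladders, black lines for group medians and n of 6 untreated, 4 vehicle, 5 water and 6 D+Q. Ribosomal shares of vehicle (3.97% to 4.38%) and water bladders lie above the untreated range (3.52% to 3.83%), and vehicle replicate 1 has an immunoglobulin share of 0.0269%.

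Short genes as a class leaned the same way. All genes tested were put in 5 equal bins by summed exon length. With ribosomal protein genes left out, the median log2 fold change went from 0.033 in the bin with the shortest exons (27 to 2050 bases) through 0.02, 0.0048 and −0.0068 to −0.024 in the longest bin. The ribosomal protein genes had medians well above these in each bin that held them, with 0.19 for the 48 in the shortest bin, 0.17 for the 21 in the next, 0.19 for the 9 in the middle bin and 0.18 for the 2 in the one after it. The part of the length gradient in the results on single genes was not tested.

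**Figure D3:**
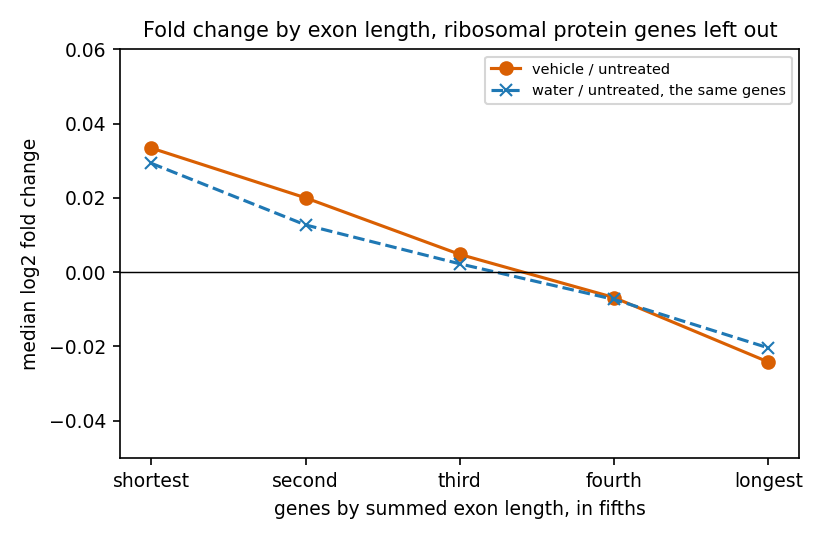
Median log2 fold change (vertical axis) of genes in 5 bins of summed exon length (horizontal axis, 3440 to 3488 genes a point), ribosomal protein genes left out, for vehicle (filled circles) and water (crosses) against the same untreated bladders. Both lines descend from about 0.03 in the shortest bin to about −0.02 in the longest.

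Of the 13 protein-coding genes of the mitochondrial genome, 12 were lower after vehicle, 8 at an unadjusted p under 0.05, and the groups did not overlap for 4, set against 3.77% and 0.694% of all genes tested. The 4 without overlap were subunits of complex I, the NADH dehydrogenase. mt-Nd2 was at 1960, 1970, 1800 and 1810 CPM after vehicle and at 2220 to 2600 CPM in untreated bladders (median 2420). All vehicle bladders lay below the untreated range, with a log2 fold change of −0.36 ± 0.062 SE (edgeR adjusted p = 0.218, DESeq2 1.13e-06). mt-Nd1 was at 3250, 3190, 2770 and 2530 CPM against 3270 to 3650 CPM (−0.25 ± 0.076). Here vehicle replicates 3 and 4 were the low ones, while replicates 1 and 2 sat just under the lowest untreated bladder.
mt-Nd4 was at 2320, 2230, 2220 and 2140 CPM against 2370 to 2620 CPM (−0.13 ± 0.047), and mt-Nd6 at 846, 868, 751 and 769 CPM against 951 to 1130 CPM (−0.33 ± 0.062). mt-Nd6 lies on the strand opposite mt-Nd5, and since the counting is not stated to use strand, reads of these genes cannot be kept apart with certainty. mt-Nd3 and mt-Atp8, both counted at low levels (under 15 and under 4 CPM in every bladder of both groups), had the steepest log2 fold changes of the set, −0.79 ± 0.18 and −1.62 ± 0.36.
Subunits of complexes III and IV were also measured. mt-Cytb, of complex III, was at 5650, 5330, 5050 and 4540 CPM against 4990 to 5700 CPM, with overlapping groups (−0.051 ± 0.069). mt-Co1, the catalytic subunit of complex IV and the member with the highest CPM, was at 11100, 11100, 9300 and 7700 CPM against 10500 to 11600 CPM (−0.16 ± 0.1). Vehicle replicates 3 and 4 lay under the untreated range and replicates 1 and 2 inside it. mt-Co2, mt-Co3 and mt-Atp6 were counted at 12.9 to 56.7 CPM in these 10 bladders. Near-identical nuclear copies of mitochondrial genes can share reads with them, so these values are uncertain.

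The summed share of mitochondrially encoded genes was 2.76%, 2.75%, 2.41% and 2.12% in vehicle replicates 1 to 4, 2.74% to 3.04% in untreated bladders, and 2.12% to 2.82% after water. D+Q bladders, which received the same vehicle, held 2.71% to 2.94%. Their median was 2.83%, against 2.88% in untreated, 2.58% in vehicle and 2.59% in water bladders. Vehicle replicates 1 and 2 lay inside the untreated range and replicates 3 and 4 under it. Vehicle replicate 4, the lowest, also had the fewest counts of its group. Water replicate 1, the lowest after water at 2.12%, likewise had the fewest counts of its group (18697996). Each of these libraries had the highest ribosomal share of its group, 4.38%. The part of depth in these shares was not tested.

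The nuclear genes of complex I leaned the opposite way. Of 36 tested, 35 were higher after vehicle, 17 at an unadjusted p under 0.05 (4.63% of all genes), with a median log2 fold change of 0.098. Ndufs5, an accessory subunit, was at 35.1, 36, 35 and 37 CPM against 29.5 to 33.2 CPM in untreated bladders (0.19 ± 0.045, edgeR adjusted p = 0.325), and Ndufa2 at 65.6, 64.3, 63.6 and 74.4 CPM against 52.3 to 61.4 CPM (0.23 ± 0.058). The groups did not overlap for either gene. Without vehicle replicate 4, 30 of the 36 were higher (median 0.066). The count of 17 was 9 without untreated replicate 1 or 5 and 11 without vehicle replicate 4. All genes at that p, in both directions, numbered 1464 with all bladders and 1252, 1210 and 988 under these omissions.

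**Figure D4:**
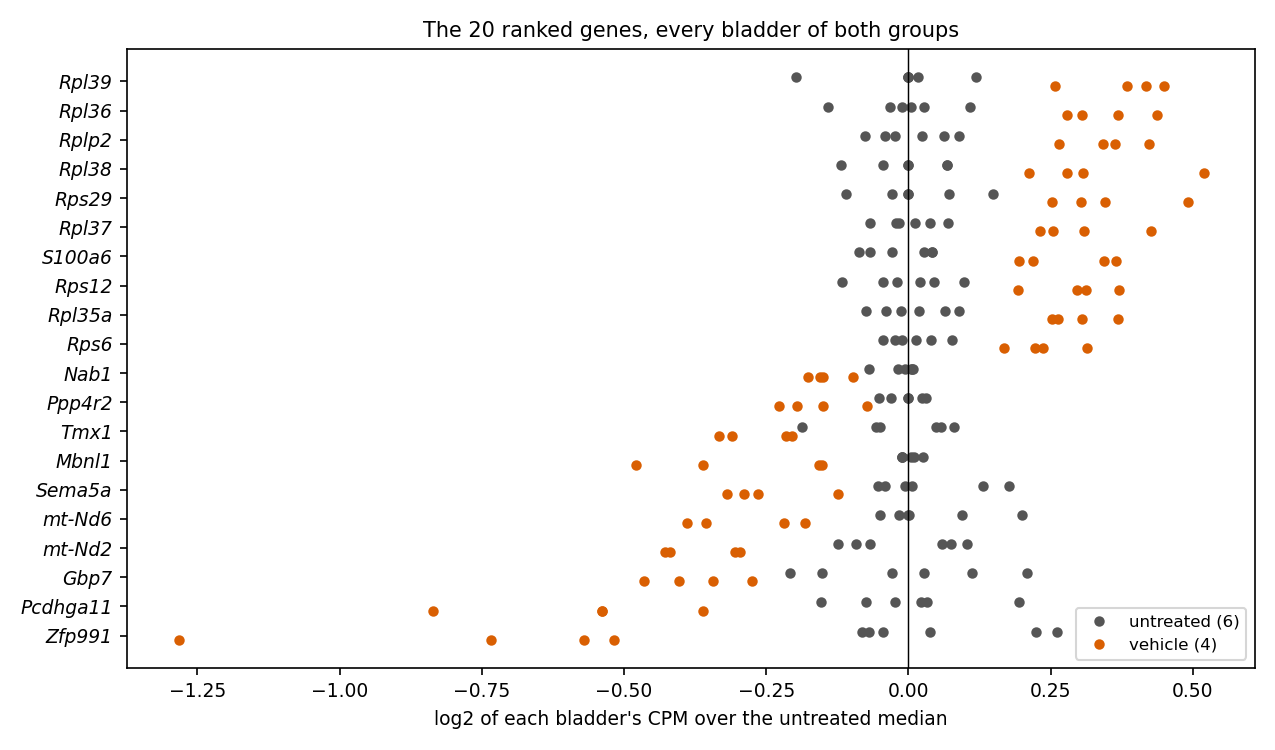
Each bladder's CPM over the untreated median, as log2 (horizontal axis), for the 10 genes ranked as higher and the 10 ranked as lower after vehicle (rows), with 6 untreated (grey) and 4 vehicle bladders (orange). Genes were ranked among those whose groups do not overlap, so the separation itself is how they were chosen, and 9 of the 10 higher genes encode ribosomal proteins.

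Beyond the mitochondrial genes, 8 nuclear genes completed the 10 ranked as lower. Zfp991, a zinc finger gene of unknown role, was at 6.69, 6.94, 5.97 and 4.08 CPM after vehicle against 9.39 to 11.9 CPM (log2 fold change −0.81 ± 0.14 SE, edgeR adjusted p = 0.218). Mbnl1, a splicing regulator, was at 252, 251, 218 and 201 CPM against 278 to 285 CPM (−0.29 ± 0.06). Vehicle replicates 3 and 4 were the lowest. Sema5a, a guidance cue, was at 58.1, 65.2, 59.1 and 56.9 CPM against 68.4 to 80.3 CPM (−0.29 ± 0.057), and Nab1, a corepressor of EGR transcription factors, at 77.1 to 81.4 CPM against 83 to 87.6 CPM (−0.14 ± 0.028). The others were Tmx1, a thioredoxin-like protein of the endoplasmic reticulum, Ppp4r2, a regulatory subunit of protein phosphatase 4, Gbp7, an interferon-induced GTPase, and Pcdhga11, a clustered protocadherin that shares exons with its neighbours. Their log2 fold changes were −0.16 to −0.56, with edgeR adjusted p of 0.285 to 0.315.

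Immediate early genes, which switch on within minutes of a stimulus, were lower in 13 of 18 cases after vehicle, 6 of them at an unadjusted p under 0.05 (3.77% of all genes), with a median log2 fold change of −0.25. Nr4a1, an orphan nuclear receptor of this class, was at 23.3, 42, 45.9 and 44.4 CPM in vehicle bladders and at 47.5 to 115 CPM in untreated ones (median 84.8). The groups did not overlap (−1.09 ± 0.25, edgeR adjusted p = 0.315, DESeq2 0.019). Fosb was at 1.16, 3.83, 6.73 and 1.97 CPM against 3.12 to 14.4 CPM (−1.28 ± 0.51), and Egr1 at 13.4, 10, 16.1 and 23.5 CPM against 11.7 to 47.9 CPM (−0.94 ± 0.4). Junb, the member with the highest CPM, was at 113 to 126 CPM against 95.7 to 137 CPM (0.028 ± 0.086). The count of 6 was 1 without vehicle replicate 1 or without untreated replicate 6, 2 without vehicle replicate 2 or untreated replicate 4, 4 without untreated replicate 2, 3 or 5, and 0 when the other old groups entered the fit. All genes at that p, in both directions, numbered 1464 with all bladders. They numbered 2153 and 1078 without vehicle replicate 1 or untreated replicate 6, and 1699 and 1531 without vehicle replicate 2 or untreated replicate 4. Without untreated replicate 2, 3 or 5 there were 1204, 1298 and 1210, and with the other old groups in the fit 1528. Water-gavaged bladders ranged from 14.2 to 210 CPM for Nr4a1.

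Smooth muscle genes were higher in 14 of 15 cases, 3 at an unadjusted p under 0.05 (4.63% of all genes), with a median of 0.1. Tagln, the actin-binding protein transgelin, was at 126, 112, 99 and 137 CPM against 82.4 to 102 CPM (0.36 ± 0.085, edgeR adjusted p = 0.315, DESeq2 0.016), and only vehicle replicate 3 reached into the untreated range. Myh11, smooth muscle myosin, was at 13500, 11900, 10800 and 12900 CPM against 10100 to 12600 CPM and overlapped more (0.12 ± 0.087). Of 25 urothelial genes, 18 were higher and 7 lower, with a median of 0.055. At that p 4 were higher, against 4.63% of all genes, and 1 lower, against 3.77%. Krt18, a keratin of simple epithelia, was at 734, 638, 628 and 707 CPM against 551 to 624 CPM (0.22 ± 0.054), and its relative Krt19 at 512, 481, 480 and 529 CPM against 387 to 470 CPM (0.23 ± 0.057). The groups did not overlap for either keratin, and DESeq2 passed both (adjusted p 0.0178 and 0.0262). The uroplakin Upk1a, which builds the plaques of umbrella cells, was at 1280, 1250, 1300 and 1600 CPM against 1240 to 1350 CPM (0.05 ± 0.068), with only vehicle replicate 4 above the untreated range.

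Lists of fibroblast, endothelial, Schwann, neuronal and skeletal muscle genes had medians of 0.044, 0.027, 0.075, −0.13 and 0.06, and together held 1 gene at an unadjusted p under 0.05, Cldn5, an endothelial claudin (0.19 ± 0.079). For scale, the interquartile range of all genes tested was −0.088 to 0.077, and 4.63% were higher and 3.77% lower at that p.

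Lists were also drawn up for pathways that the parts of the vehicle could enter. Beside their counts, 4.63% of all genes were higher and 3.77% lower at an unadjusted p under 0.05. Of 12 genes of alcohol metabolism, 6 were higher and 6 lower (median 0.0017). Adh1 was at 401, 395, 417 and 477 CPM against 380 to 416 CPM (0.087 ± 0.054), and the mitochondrial aldehyde dehydrogenase Aldh2 at 425, 460, 532 and 527 CPM against 416 to 476 CPM (0.12 ± 0.067). The groups overlapped in both. Adh5 alone of this list had an unadjusted p under 0.05 (0.12 ± 0.042). Of 22 genes of fatty acid oxidation, 12 were higher and 10 lower and none had a p under 0.05 (median 0.0097). Hadha, of the mitochondrial trifunctional protein, was at 192 to 209 CPM against 187 to 201 CPM (0.042 ± 0.033). Of 12 genes of phosphatidylcholine synthesis, 6 were higher and 6 lower (median −0.0013), with Chkb at 0.1 ± 0.038 and Chpt1 at −0.17 ± 0.077 the single members past that p in each direction. Sterol and fatty acid synthesis genes had a median of 0.036 over 23, and Hmgcs1, the enzyme before HMG-CoA reductase, was the only one with a p under 0.05, at 66.4 to 71.5 CPM against 68.8 to 81.6 CPM (−0.15 ± 0.047).
NRF2 targets had a median of −0.01 over 15, with 1 gene higher and 1 lower at an unadjusted p under 0.05. Heat shock genes had a median of −0.011 over 15, with 1 higher and 3 lower at that p (4.63% and 3.77% of all genes). Unfolded protein response genes had a median of −0.079 over 18, with none at that p. The 6 aryl hydrocarbon receptor genes had a median of −0.3 with no p under 0.05, and Cyp1a1 was at 53.1, 21, 21.7 and 28.2 CPM against 26.7 to 66.6 CPM (−0.61 ± 0.33). Glucocorticoid response genes, a gauge of handling stress, had a median of 0.096 over 15. Mt1, a metallothionein, was the only one at a p under 0.05, at 40.6, 50.8, 54.2 and 66.6 CPM against 38.2 to 48.5 CPM (0.27 ± 0.12), and Tsc22d3 was at 75.7 to 173 CPM against 85.6 to 119 CPM. Of 18 clock genes 13 were higher (median 0.14), with Bhlhe41 and Dbp higher and Clock and Arntl lower at an unadjusted p under 0.05. Dbp was at 181, 163, 186 and 166 CPM against 95.9 to 172 CPM (0.35 ± 0.12). Hours of collection are not given in the sources used here.

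Of the 14 senescence and secretory genes the study assayed, 10 had enough counts for a test. Of these 10, 3 were higher and 7 lower, and the median was −0.19. At an unadjusted p under 0.05 there was 1 in each direction (4.63% and 3.77% of all genes). The same list also held 2 immune cell markers the study assayed beside them and 4 genes it followed under D+Q, and its median over all 16 tested was −0.03, or 0.059 without vehicle replicate 1. Cdkn2a, which encodes p16, was at 1.21, 1.48, 2.14 and 1.44 CPM after vehicle and at 0.871 to 1.49 CPM in untreated bladders (median 0.982). Vehicle replicate 3 alone lay clearly above the untreated range, and the log2 fold change was 0.57 ± 0.2 SE (edgeR adjusted p = 0.511). Cdkn1a, which encodes p21, was at 76.5, 75, 63.2 and 74.2 CPM against 69.6 to 79.8 CPM (−0.025 ± 0.059). Ptgs2, the inducible cyclooxygenase, was at 14.2, 11.4, 19 and 15.8 CPM against 17.9 to 27 CPM. Only vehicle replicate 3 reached the untreated range (−0.52 ± 0.14, edgeR adjusted p = 0.41), and it was the single gene of this list that DESeq2 passed (adjusted p 0.0369).
Cxcr5, Cxcl13, Syk and Pik3cd, the 4 genes of lymphoid tissue that the study followed under D+Q, varied widely within the vehicle group. Syk, a kinase of the B-cell receptor, was at 36.4, 52.6, 180 and 55.6 CPM against 48.3 to 103 CPM (0.23 ± 0.4). Cxcr5, a B-cell homing receptor, was at 3.66, 3.75, 28.3 and 7.87 CPM against 5.61 to 12.8 CPM (0.33 ± 0.54). In both, vehicle replicate 3 was above all untreated bladders and replicate 1 below them. For Cxcr5, vehicle replicate 2 was below them as well. Cxcl13, the chemokine that Cxcr5 binds, was at 2.93, 7.18, 43.8 and 35 CPM against 10.4 to 27.8 CPM (0.32 ± 0.62), and Pik3cd, a lymphocyte kinase, at 29.3, 37.1, 72.6 and 44.5 CPM against 41.3 to 59.8 CPM (−0.13 ± 0.21). Csf2, Cxcl1, Il6 and Mmp13 gave at most 14 counts in any bladder and were not tested.

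**Figure D5:**
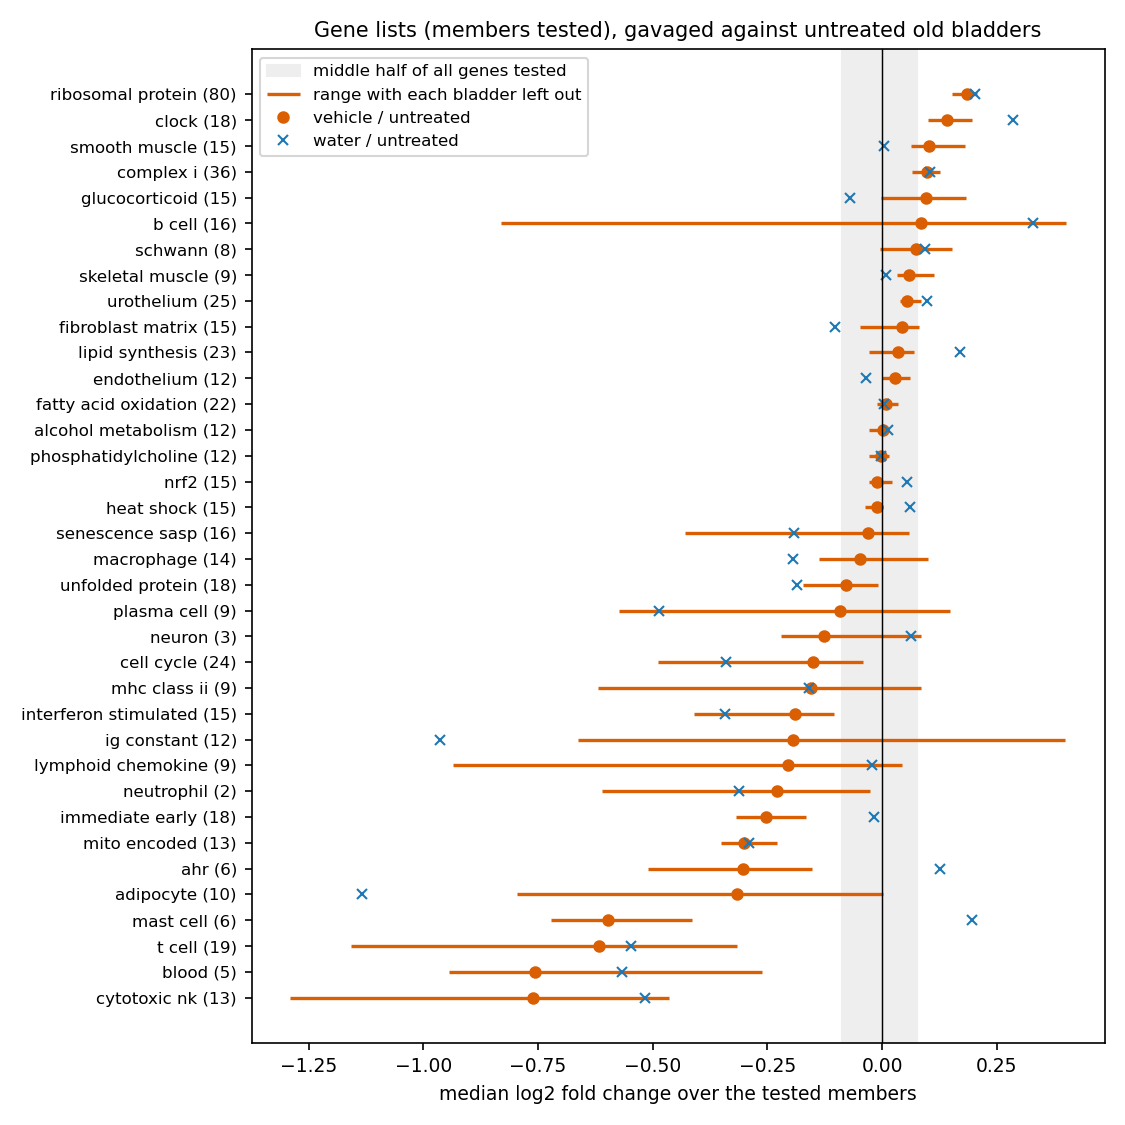
Median log2 fold change (horizontal axis) over the tested members of each of the 36 gene lists (rows, number tested in brackets), vehicle over untreated (circles, with the range when each bladder is left out) and water over untreated (crosses); grey spans the interquartile range of all genes tested, −0.088 to 0.077. The range is 0.15 to 0.21 for ribosomal protein genes and −0.35 to −0.23 for mitochondrially encoded genes, and several other lists also keep their side of 0, while the B-cell range runs from −0.83 to 0.4.

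Immune lists moved with individual vehicle bladders. The 16 B-cell genes had a median log2 fold change of 0.085, which was 0.4 without vehicle replicate 1 and −0.83 without vehicle replicate 3, when 7 were lower at an unadjusted p under 0.05 (6.64% of all genes). Cd79a, a signalling chain of the B-cell receptor, was at 10.3, 16.4, 68.8 and 27.2 CPM in vehicle bladders against 15.2 to 44.4 CPM. Replicate 1 lay below the untreated range and replicate 3 above it. Ighm, immunoglobulin mu, was at 118, 3390, 6250 and 4010 CPM against 1640 to 11000 CPM, with replicate 1 alone outside the untreated range. MHC class II genes had a median of −0.16 over 9, or 0.085 without vehicle replicate 1 and −0.62 without vehicle replicate 3. Plasma cell genes had a median of −0.091 over 9 (0.13 without vehicle replicate 1), immunoglobulin constant genes −0.19 over 12 (0.21), lymphoid chemokine genes −0.21 over 9 (0.044), neutrophil genes −0.23 over 2 (−0.026) and cell cycle genes −0.15 over 24 (−0.041), with none at an unadjusted p under 0.05 when all bladders entered.
T-cell and cytotoxic genes leaned lower. Of 19 T-cell genes 18 were lower (median −0.62), or 17 without vehicle replicate 1 (median −0.32) and 19 without vehicle replicate 3 (median −1.16). The number lower at an unadjusted p under 0.05 was 1 with all bladders and 16 without vehicle replicate 3, an omission under which 6.64% of all genes tested were lower at that p, against 3.77% with all bladders. Cd3e, a chain of the T-cell receptor complex, was at 1.96, 4.21, 9.16 and 5.66 CPM against 5.75 to 11.3 CPM (−0.58 ± 0.35, edgeR adjusted p = 0.649), so the groups overlapped through replicate 3. All 13 cytotoxic genes were lower (median −0.76), 10 of 13 without vehicle replicate 1 (median −0.46), and 8 were lower at an unadjusted p under 0.05 without vehicle replicate 3 (6.64% of all genes). With all bladders only Gzmb, granzyme B, had such a p, at 0.581 to 1.62 CPM against 0.926 to 3.93 CPM (−1.15 ± 0.47). Macrophage genes had a median of −0.049 over 14 (0.1 without vehicle replicate 1), and Csf1r, their growth factor receptor, was at 124, 135, 161 and 152 CPM against 128 to 167 CPM.
All 15 interferon-stimulated genes tested were lower (median −0.19), and 13 of 15 without vehicle replicate 1. With all bladders 2 were lower at an unadjusted p under 0.05 (3.77% of all genes). Without vehicle replicate 3, 9 were lower at that p (6.64% of all genes). Among GTPases induced by interferon gamma, Gbp7 was at 41, 39.3, 43 and 37.7 CPM against 45 to 60.1 CPM and did not overlap (−0.37 ± 0.08, edgeR adjusted p = 0.285). Gbp4, Gbp6, Gbp9 and Iigp1, picked here because DESeq2 passed them, had log2 fold changes of −0.73 ± 0.21, −0.62 ± 0.17, −0.48 ± 0.14 and −0.89 ± 0.23 in edgeR, with adjusted p of 0.341 to 0.455. Gbp4 and Gbp9 overlap on the same strand, so their reads may be shared. T-cell genes, which stood lower in the same bladders, were not adjusted for, and their part in these values was not tested.
Of 6 mast cell genes tested, 4 were lower and 2 higher (median −0.6, or −0.72 without vehicle replicate 1). Of the lower genes 3 had an unadjusted p under 0.05 (3.77% of all genes). Kit, a receptor of mast cells and of interstitial cells and the member with the highest CPM, was at 63, 51.3, 50.8 and 48.4 CPM against 28.3 to 60.8 CPM (0.34 ± 0.2). With at least 10 counts in every bladder only 3 members remained, with a median of 0.2. Cma1, a chymase, was at 0.533, 0.513, 0.319 and 0.432 CPM against 0.597 to 1.48 CPM (−1.05 ± 0.28, edgeR adjusted p = 0.399), without overlap, and Mcpt4 at 0.533, 0.648, 0.295 and 0.384 CPM against 0.314 to 1.32 CPM (−0.84 ± 0.36). Adipocyte and blood lists had medians of −0.32 over 10 and −0.76 over 5 with no p under 0.05. Hbb-bs, beta globin, was at 61.1, 65, 97.1 and 96.4 CPM against 43.6 to 346 CPM.

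Water gavage is the procedure without the carrier. It was compared with the same 6 untreated bladders, so its differences from them are not independent of those of the vehicle, and the values are set side by side. In edgeR 84 of 17250 genes were higher after water (0.487%) and 89 lower (0.516%). Of the ribosomal protein genes 54 of 79 tested passed as higher, with a median of 0.2, against 0.19 after vehicle. Rplp2 was at 489 to 587 CPM after water (0.33 ± 0.046, adjusted p = 0.0124). Of the mitochondrially encoded genes 4 passed as lower, with a median of −0.29, against −0.30 after vehicle, and mt-Nd2 was at 1730 to 2050 CPM (adjusted p = 0.0143). Interferon-stimulated genes had a median of −0.34 after water, with 10 of 15 lower at an unadjusted p under 0.05, against 2 after vehicle. T-cell genes had −0.55, with 7 of 19 lower at that p, against 1 after vehicle. Clock genes had 0.29 after water, with 10 of 18 higher and 3 lower at that p, against 2 higher and 2 lower after vehicle. Of all 17250 genes, 1357 were higher and 1403 lower at that p after water. Immediate early and mast cell genes, with negative medians after vehicle, had −0.017 and 0.2 after water. The 173 calls after water became 37 without water replicate 1, 44 without water replicate 5 and 0 with the replicate block, so their number depended on these bladders and on the fit. Water replicate 1 had the fewest counts of the water bladders (18697996). The difference between the gavages has its own test.
In that test, vehicle against water bladders, which uses no untreated bladder, 0 of 17294 genes passed (0%) in edgeR and 0 in DESeq2, the smallest adjusted p was 1, and 322 genes had an unadjusted p under 0.05. The ribosomal protein genes had a median log2 difference of −0.014 with none at an unadjusted p under 0.05, and the mitochondrially encoded genes −0.0084. For Rplp2 the difference was 0.012 ± 0.056 SE and for mt-Nd2 0.025 ± 0.057. The widest list medians between the gavages were those of adipocyte genes (0.76), mast cell genes (−0.55) and aryl hydrocarbon receptor genes (−0.35). Immediate early genes had a median of −0.14, with 0 of 18 at an unadjusted p under 0.05. Of 23 sterol and fatty acid synthesis genes, 6 had an unadjusted p under 0.05, against 322 of all 17294. Their median, vehicle over water, was −0.16. Against untreated bladders it was 0.17 after water and 0.036 after vehicle. Mcpt4 and Cma1 had log2 differences, vehicle over water, of −1.27 ± 0.28 and −1.25 ± 0.32 and an adjusted p of 1 in edgeR. With 4 bladders against 5, a difference that misses the threshold does not show that the gavages act alike.

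To isolate D+Q, the study removed genes that were significant in its water and vehicle comparisons, and gave an absolute fold change under 0.2 beside that step, on a scale that is not stated. By significance alone, 0 genes would be removed for vehicle here by edgeR's quasi-likelihood test, and 19 by its likelihood ratio test or exactTest. The study names edgeR but not which of its tests was used. The following counts therefore describe the limit by itself and not the study's filter. Read on the log2 scale, 3500 of the 17440 genes tested (20.1%) lay past that limit, and read as a 20% change 2379 did. Of the 3500, 1399 were higher and 2101 lower, and 677 had an unadjusted p under 0.05. The share past the limit was 51.3% in the lowest of 4 equal bins by mean CPM (0.175 to 3.34), 18.3% and 5.78% in the next bins and 4.93% in the highest. The median SE of the fold change was 0.28 in the lowest bin and 0.05 in the highest, so in the lowest bin the limit was smaller than the typical error. Requiring both vehicle and water to stay under the limit left 12422 of 17212 genes tested in both (72.2%). Of the 4 lymphoid genes above, Cxcr5 (0.33), Cxcl13 (0.32) and Syk (0.23) lay past the limit and Pik3cd (−0.13) under it. Rplp2 (0.34) and mt-Nd2 (−0.36) lay past it, and Rpl4 (0.13) under it.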

How the data were processed

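Whole bladders were profiled by stranded total RNA sequencing. Per the labels and the study's methods, the authors aligned reads with STAR 2.7.3 to mm10 and deposited whole-number counts per gene from featureCounts (Subread), without pooling replicates. Whether counting used strand is not given in the sources used here. The authors also deposited a log2 table of length-scaled values, which computes as log2 of (count + 1) over summed exon length, scaled to a sum of 100000 per bladder. No columns of fold changes were used.

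Groups came from the sample labels. Genes with enough counts by filterByExpr were tested with edgeR 4.0.16 (TMM, quasi-likelihood, Benjamini-Hochberg adjusted p under 0.05), fitting only the 2 groups compared. DESeq2 1.42.0, edgeR's likelihood ratio test and exactTest, limma 3.58.1 on log2 TPM with pseudocounts of 1 and 0.1, other filters, scalings and sample sets, and omission of each bladder were alternatives. Scripts were tested on simulated data. The p-values measure the spread between these samples. Totals were 21252772 to 52650259 counts in the 10 bladders, so that 3 counts correspond to 0.057 to 0.141 CPM.

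Named genes were the 10 with the smallest unadjusted p in each direction among genes whose groups did not overlap and whose mean CPM was at least 1 (numbered models and receptor segments left out), the study's senescence genes, and, from each of 36 lists, up to 4 members with the smallest p and the member with the highest CPM. The rule's first criterion, an adjusted p under 0.05, named no gene. Some genes the rule names are not reported here. Rpl3l, Rpl7l1, Fau, Gbp4, Gbp6, Gbp9, Iigp1, mt-Nd1, mt-Nd4, mt-Nd5, mt-Co2, mt-Co3, mt-Atp6 and mt-Cytb were added after their values were seen. The comparison and the lists were chosen with earlier results of these data known. Start-region sequences are from RefSeq (GRCm38.p6).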

Additional observations from a re-analysis of the deposited data

Results flagged for a closer look

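Of 240 group values examined, 13 (5.42%) had a highest or lowest bladder set apart by Dixon's criterion, which chance alone does in about 1 of 20. In vehicle replicate 3, Cxcr5 was at 28.3 CPM and Syk at 180 CPM, above the other 3 vehicle bladders. In vehicle replicate 4, the summed urothelial genes were at 10900 CPM and Upk1a at 1600 CPM. In vehicle replicate 1, the summed mast cell genes were at 65.9 CPM, of which Kit alone gave 63 CPM, and mt-Co3 was at 50.3 CPM. Among untreated bladders, replicate 6 had the highest immunoglobulin share (2.88% of counts) and the highest summed immunoglobulin constant genes (21000 CPM), the lowest summed skeletal muscle genes (413 CPM) and the lowest Nab1 (83 CPM). Untreated replicate 4 had the highest Cdkn2a (1.49 CPM), mt-Co1 (11600 CPM) and mt-Nd4 (2620 CPM). Their part in the comparisons was not tested beyond leaving out each bladder.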

How the results depend on the processing

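For vehicle against untreated bladders, 0 genes passed with RLE scaling, without a count filter, with at least 10 counts in every bladder, with 4 or 6 groups in the fit, with limma and with any bladder left out, while DESeq2 passed 127 and the likelihood ratio test and exactTest 19 each. The genes at an unadjusted p under 0.05 split 807 higher to 657 lower, against 416 to 621 with limma on log2(TPM + 1). Genes past 0.2 numbered 10477 in DESeq2 and 10664 without a filter, where all genes with a count enter, 2275 with at least 10 counts in every bladder, and 3132 to 4589 with each bladder left out. For water against untreated bladders the 173 calls became 694 in DESeq2, 99 without a filter and 3 with 4 groups in the fit. They numbered 37 to 199 with each bladder left out, with 37, 59 and 44 without water replicate 1, 4 or 5 and 68, 65, 50 and 47 without untreated replicate 1, 2, 5 or 6. Vehicle against water gave 0 under every alternative run. Under settings added after seeing the data, ribosomal protein genes higher at an unadjusted p under 0.05 numbered 49 to 74 and mitochondrially encoded genes lower numbered 7 to 10. The 17 nuclear complex I genes became 9 with 4 groups and 6 with 6 groups in the fit, 8 with the likelihood ratio test or exactTest, 10 with limma at either pseudocount, and 9 to 20 with each bladder left out. The 6 immediate early genes became 0 with 4 or 6 groups in the fit and 1 to 7 with each bladder left out. All genes at that p, in both directions, numbered 1464 in the main fit and 1657 in DESeq2. They numbered 1528 and 1211 with 4 or 6 groups in the fit, 813 with the likelihood ratio test and 808 with exactTest. Limma gave 1037 and 1056 at pseudocounts of 1 and 0.1, the replicate block 1028, and omission of each bladder 988 to 2359. With the replicate block, 0 genes passed in vehicle against untreated, 0 in water against untreated and 0 in vehicle against water, and complex I genes numbered 10. By the numbers in the sample titles, which the block used, same-numbered vehicle and untreated bladders had correlations of −0.12 to −0.0074 in their deviations. By the numbers in the column names, under which vehicle replicates 3 and 4 are 4 and 6, these pairs had −0.27 and 0.24. Neither numbering was taken as pairs. The cause of these shifts was not tested. Of 1673 values for the 80 named genes, 63 passed, all under DESeq2, the likelihood ratio test or exactTest, and 27, of 14 genes that did not pass, changed sign.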
